A study of Mus musculus with 16 samples.

Results

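The Ly6 genes Ly6c1, Ly6c2, Ly6a and Ly6e, were followed through suprarenal aortae, the abdominal segment above the renal arteries, of male mice. They are 4 of the 29695 genes in the count table, taken by gene name, and they were selected on their measured CPM levels over the 4 groups, so their differences between groups are a description. Where the count of these genes past the threshold of the whole-table fit is printed, it stands beside the share of all genes past it, is drawn from the values that chose the genes, and supports nothing. All 4 passed the expression filter that left 15984 genes for testing. The groups were C57BL/6 wild type (WT) given saline, WT given angiotensin II (AngII), Vamp8-/- knockout (KO) given saline and KO given AngII, with 4 libraries in each, which the labels call biological replicates. AngII, a vasoconstrictor peptide that raises blood pressure, was given at 1000 ng/kg/min through an osmotic minipump for 5 days, and the saline mice carried the same kind of pump. The knockout is labelled Vamp8-/- with no cell type restriction, and Vamp8 is a SNARE protein that takes part in the fusion of endosomes and granules with their target membranes. The submitters left out aortae with bleeding in the wall or overt pathology, and the labels read here state the sex of the mice but no age.

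Ly6 proteins belong to the Ly6/uPAR family, small proteins built on a disulfide-linked three-finger fold, most of which are held on the outer cell surface by a glycosylphosphatidylinositol (GPI) lipid anchor. Ly6c1 and Ly6c2 encode the Ly6C antigens, which mark endothelial cells and a class of inflammatory monocytes, Ly6a encodes Sca-1, a marker of stem and progenitor cells that endothelium and adventitial cells also carry, and Ly6e encodes a broadly expressed member known for its part in viral infection. Interferons raise several of these genes in many cell types. In RefSeq's gene order for GRCm38.p6 the 4 genes lie close together on chromosome 15, in the order Ly6e, Ly6i, Ly6a, Ly6c1 and Ly6c2.

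Ly6c1 and Ly6c2 are near-identical copies, and their coding sequences are shown because they bear on how reads could be told apart. Both are 396 bases long in the principal GENCODE M21 transcript (GRCm38), and they differ at 9 bases, which leaves 97.7% identity. Bases 1 to 300 from the start codon are printed, with the 7 differing bases that fall there in capitals.
Ly6c1: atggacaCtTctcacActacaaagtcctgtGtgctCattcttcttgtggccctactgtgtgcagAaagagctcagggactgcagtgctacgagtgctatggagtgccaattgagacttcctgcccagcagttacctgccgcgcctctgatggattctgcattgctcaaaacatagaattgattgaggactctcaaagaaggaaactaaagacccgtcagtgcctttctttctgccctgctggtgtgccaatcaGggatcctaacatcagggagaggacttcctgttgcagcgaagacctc
Ly6c2: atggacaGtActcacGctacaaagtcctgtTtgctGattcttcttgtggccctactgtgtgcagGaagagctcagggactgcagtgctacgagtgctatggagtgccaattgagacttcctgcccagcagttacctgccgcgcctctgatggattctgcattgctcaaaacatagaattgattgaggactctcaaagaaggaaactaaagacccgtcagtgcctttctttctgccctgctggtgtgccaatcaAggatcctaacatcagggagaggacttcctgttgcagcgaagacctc
Most differing bases sit near the start, and the longest stretch without one is 188 bases. Of the 795 stretches of 50 bases in the Ly6c1 transcript, 31.7% occur letter for letter in Ly6c2, and of the 745 stretches of 100 bases, 15.3% do. Ly6a is more distant, with 82.0% coding identity to Ly6c1, and 8.05% of its 50-base stretches but 0% of its 100-base stretches occur in another gene. Ly6e stands furthest from the others, at 50.5% to 53.8% coding identity, and shares no 50-base stretch with another gene. The treatment of reads matching several genes is not stated by the labels or notes, and the split of reads between Ly6c1 and Ly6c2 is uncertain, while Ly6e is free of this limit at these lengths.

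The sequences before the start sites of the copies differ more than their coding parts. They are shown beside the levels of the copies, whose split of reads is uncertain, and their part in those levels was not tested. The 250 bases before the first listed RefSeq start site of each gene are given 5′ to 3′ on the minus strand (GRCm38.p6, chr15:75048838-75049087 for Ly6c1 and chr15:75111972-75112221 for Ly6c2), with any TATAAA match on either strand in capitals.
Ly6c1: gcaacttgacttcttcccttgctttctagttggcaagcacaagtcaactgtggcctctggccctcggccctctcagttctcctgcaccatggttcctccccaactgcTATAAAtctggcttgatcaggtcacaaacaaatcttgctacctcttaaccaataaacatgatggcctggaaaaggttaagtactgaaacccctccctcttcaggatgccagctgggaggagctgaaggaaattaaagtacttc
Ly6c2: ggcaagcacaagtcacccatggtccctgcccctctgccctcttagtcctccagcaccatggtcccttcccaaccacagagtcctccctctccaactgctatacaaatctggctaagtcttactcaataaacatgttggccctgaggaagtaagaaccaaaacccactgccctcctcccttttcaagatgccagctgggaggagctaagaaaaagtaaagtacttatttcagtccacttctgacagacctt
These windows were identical at 164 of 284 aligned columns, or 57.7%, where columns with a gap count as differing. The first bases of the Ly6c2 window recur further into that of Ly6c1. The windows are thus offset against each other, and the gaps from this lower the share. The letters TATAAA occurred 1 time in the Ly6c1 window and not in that of Ly6c2 and 13% of 27025 windows of the same length held them. The letters TTCNNNGAA, the core of a STAT binding site, were in neither window, and 7.18% of all windows held them on either strand.

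Total counts ran from 13284804 to 21643548 reads per library. Vamp8 itself stood at 51.9 ± 4.64 normalised counts (counts-per-million, CPM, reads scaled to a common library total by the TMM method; SD, n = 4) in WT saline and 55.8 ± 3.67 under AngII. It was 34.0 ± 13.2 in the saline and 22.9 ± 5.90 in the AngII group of the knockout. The library labelled KO saline replicate 1 held 53.3 CPM of Vamp8, inside the WT range, and had a scaling factor of 0.716, the lowest of the 16. In KO AngII replicate 4 the mean log2 CPM of 10 neuronal and adrenal marker genes was 8.22, against -1.93 to 4.25 in the other 15 libraries. The share of reads from mitochondrially encoded genes was 27.0% to 32.8% in KO saline, against 8.33% to 17.7% in WT saline, 9.56% to 16.3% in WT AngII and 10.1% to 24.3% in KO AngII. In addition, 2725 genes carried no symbol in the table, and all 2725 had 0 reads in every WT library. A difference in how the genotypes were counted and genotype itself cannot be told apart in any KO against WT value. The mitochondrial share set KO saline apart from KO AngII as well. In KO AngII against KO saline and in the interaction, a property of the KO saline libraries and the effect of AngII likewise cannot be told apart.

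Ly6c1, Ly6a and Ly6e were highest in KO saline, and in all 3 every KO saline library lay above each of the other 12 libraries. Across the genes tested, 0.763% had that order, and since the genes were chosen for their levels nothing is read from it. Ly6c2 was close to the lower limit of detection in every group. Ly6c1, Ly6a and Ly6e were near the same level in WT saline and WT AngII.

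In the WT saline libraries Ly6c1 stood at 118, 133, 117 and 87.3 CPM for replicates 1 to 4. In WT AngII it stood at 98.7, 138, 99.0 and 108 CPM. In KO saline it stood at 282, 233, 227 and 251 CPM, and in KO AngII at 129, 129, 99.3 and 119 CPM. The lowest KO saline library, at 227 CPM, was well above the highest of the others, WT AngII replicate 2 at 138 CPM, and the WT saline, WT AngII and KO AngII groups overlapped throughout. The group means were 114 ± 19.2 CPM for WT saline and 111 ± 18.5 for WT AngII, then 249 ± 24.7 for KO saline and 119 ± 14.1 for KO AngII (SD, n = 4). The spread within a group was 9.93% to 16.9% of its mean. With 1438 to 4374 reads per library, Ly6c1 was counted deeply.

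Ly6a, which encodes Sca-1, stood at 159, 194, 152 and 144 CPM in WT saline and at 133, 193, 184 and 178 CPM in WT AngII. In KO saline it stood at 261, 254, 204 and 318 CPM, and in KO AngII at 119, 156, 134 and 153 CPM. The gap was narrow, since the lowest KO saline library, at 204 CPM, lay just above WT saline replicate 2 at 194 CPM. The KO AngII libraries lay in the lower part of the WT AngII range or below it, with overlap. The means were 162 ± 21.9, 172 ± 26.4, 259 ± 46.6 and 141 ± 17.7 CPM in WT saline, WT AngII, KO saline and KO AngII (SD, n = 4).

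Ly6e stood at 156, 250, 172 and 125 CPM in WT saline and at 178, 213, 150 and 184 CPM in WT AngII. In KO saline it stood at 325, 293, 282 and 330 CPM, and in KO AngII at 165, 272, 168 and 274 CPM. The KO AngII libraries fell into a lower pair and a higher pair, and the higher pair came close to the lowest KO saline library, with 274 against 282 CPM. The means were 176 ± 53.3, 181 ± 26.1, 308 ± 23.8 and 220 ± 61.4 CPM in the same order of groups (SD, n = 4). KO saline was the least variable of the groups for Ly6e, with a spread of 7.73% of the mean against 30.3% in WT saline.

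Ly6c2, the copy that marks Ly6C-high monocytes, was counted with 2 to 28 reads per library. Its WT saline libraries held 6, 15, 6 and 7 reads, and its WT AngII libraries held 5, 24, 19 and 20. Its KO saline libraries held 18, 18, 18 and 10 reads, and its KO AngII libraries held 2, 19, 28 and 14. The groups overlapped in every comparison, and the means were 0.524 ± 0.304, 1.10 ± 0.536, 1.12 ± 0.315 and 0.851 ± 0.571 CPM in WT saline, WT AngII, KO saline and KO AngII (SD, n = 4). Ly6c2 made up 0.108% to 1.52% of the reads of the pair in a library, so Ly6c1 and the sum of both copies gave the same picture. The split of shared reads within the pair was not tested.

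**Figure D1:**
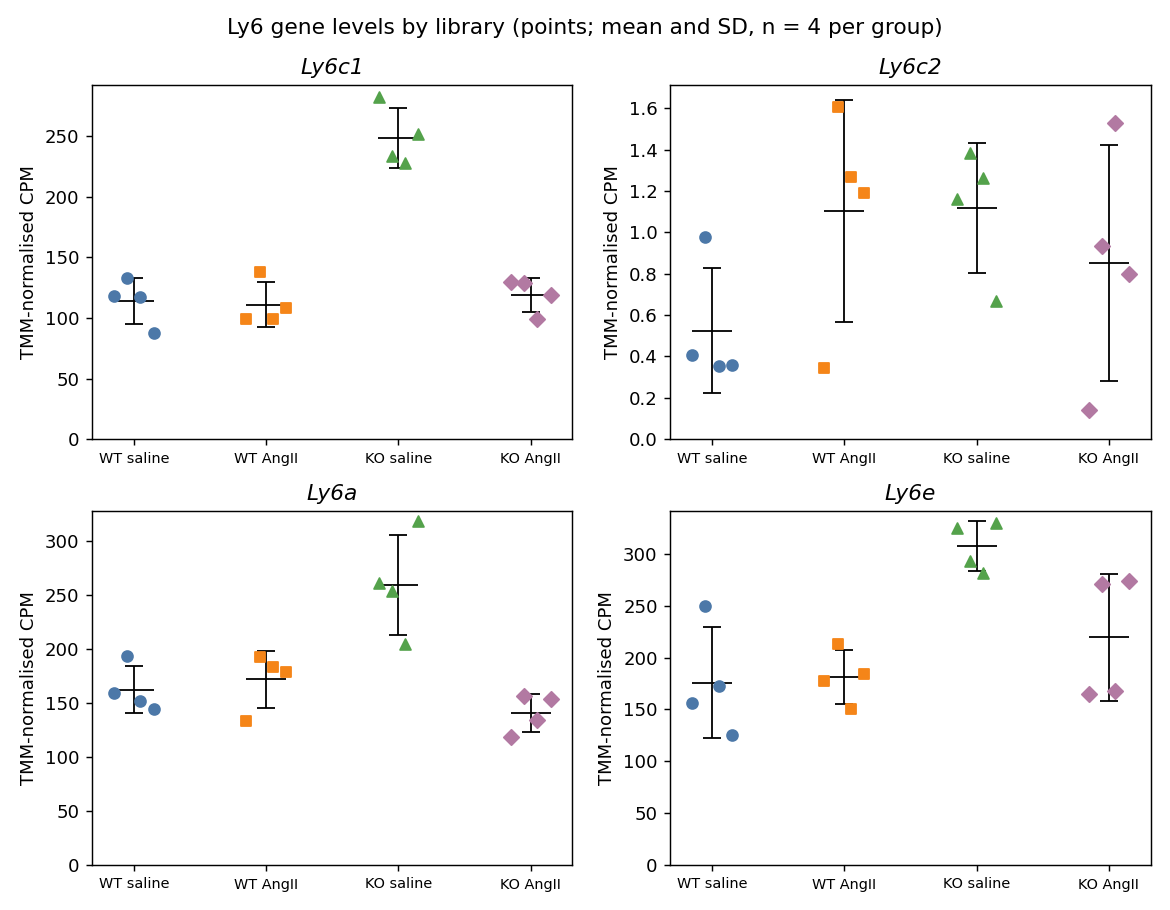
TMM-normalised CPM of the 4 Ly6 genes in each of the 16 libraries (points, linear axis from 0), with the mean and SD of the 4 libraries of a group. KO saline lies apart for Ly6c1 (227 CPM and above, others up to 138), is separated by a narrow gap for Ly6a and Ly6e, and overlaps the other groups for Ly6c2.

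Levels were compared between genes only per kilobase of the principal transcript (RPKM, CPM divided by transcript length, with lengths of 844 bases for Ly6c1, 822 for Ly6c2, 819 for Ly6a and 2281 for Ly6e). In WT saline Ly6a was at 198 ± 26.8 RPKM, Ly6c1 at 135 ± 22.8, Ly6e at 77.1 ± 23.3 and Ly6c2 at 0.638 ± 0.370 (SD, n = 4). In KO saline the same genes were at 316 ± 57.0, 295 ± 29.3, 135 ± 10.4 and 1.36 ± 0.384 RPKM. With these lengths the order Ly6a, Ly6c1, Ly6e, Ly6c2 held in 13 of the 16 libraries. In the other 3, from KO saline and KO AngII, Ly6c1 lay above Ly6a. The ratio of Ly6c1 to Ly6a per length was 0.588 to 0.749 for WT saline and 0.523 to 0.718 for WT AngII, then 0.767 to 1.08 for KO saline and 0.718 to 1.06 for KO AngII. With these lengths Ly6c1 and Ly6a thus did not differ beyond their spread in KO saline, whereas Ly6a was above Ly6e in every library, by a ratio of 1.56 to 3.41. Ly6c1 exceeded Ly6c2 by a ratio of 63.2 to 901. All annotated exons joined span 1677 bases for Ly6c1, 2740 for Ly6c2, 1205 for Ly6a and 3784 for Ly6e. The place of Ly6c1 beside Ly6a and Ly6e depends on which length is used, so their order is not a firm result.

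AngII against saline in WT asks how the normal aorta responded. Ly6c1 differed by -0.04 (SE 0.15) on the log2 scale of fold change, Ly6a by 0.09 (SE 0.16) and Ly6e by 0.04 (SE 0.22), each smaller than its standard error. Ly6c2 differed by 1.07 (SE 0.59), on a summed 34 reads in WT saline and 68 in WT AngII. By edgeR's quasi-likelihood test at a Benjamini-Hochberg adjusted p under 0.05, 0 of the 4 genes were past the threshold, 0 were at an unadjusted p under 0.05, and by DESeq2 0 were called. Of all genes tested, 0.444% were called.

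Knockout against WT under saline asks what loss of Vamp8 did without AngII. Ly6c1 was higher in KO by 1.13 (SE 0.15) in log2, which is 2.18-fold, Ly6a by 0.68 (SE 0.16), which is 1.60-fold, and Ly6e by 0.81 (SE 0.22), which is 1.75-fold. The value of Ly6c2 was 1.09 (SE 0.59). Among the genes past the same threshold were 2 of the 4, Ly6c1 and Ly6a, beside 1.23% of genes called higher in KO (3.01% in either direction) over the whole table, and every KO saline library lay above every WT saline library for Ly6c1, Ly6a and Ly6e, beside 5.17% of all genes. Nothing is read from these counts, since the same levels led to the choice of the genes. With KO saline replicate 1 and KO AngII replicate 4 left out, the log2 differences were 1.06 for Ly6c1, 0.67 for Ly6a and 0.78 for Ly6e, and only Ly6c1 of the 4 was past the threshold.

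AngII against saline in KO gave the opposite direction. Ly6c1 was lower under AngII by -1.06 (SE 0.15) in log2, 2.09-fold, Ly6a by -0.88 (SE 0.16), 1.84-fold, and Ly6e by -0.49 (SE 0.22), 1.40-fold, and Ly6c2 differed by -0.37 (SE 0.57). Of the 4, 1 gene, Ly6c1, was past the threshold, beside 0.0501% of genes called lower, and for Ly6c1, Ly6a and Ly6e every KO AngII library lay below every KO saline library, beside 3.52% of all genes. Without KO saline replicate 1 and KO AngII replicate 4 the difference was -0.99 for Ly6c1, -0.92 for Ly6a and -0.58 for Ly6e, and 0 of the 4 genes were past the threshold. This comparison shares the KO saline libraries, high by the choice of the genes, with the one before it, and nothing is read from its counts. In whole tissue, fewer cells of a type and less RNA per cell cannot be told apart.

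Under AngII the KO and WT levels were close. The log2 differences of KO AngII against WT AngII were 0.10 (SE 0.15) for Ly6c1, -0.36 (SE 0.57) for Ly6c2, -0.29 (SE 0.16) for Ly6a and 0.28 (SE 0.22) for Ly6e. Of the 4 genes, 0 were past edgeR's threshold, 0 were at an unadjusted p under 0.05, and by DESeq2 0 were called, beside 2.03% of all genes called by edgeR. The interaction, the AngII difference in KO minus that in WT, was -1.02 (SE 0.22) for Ly6c1, -0.97 (SE 0.23) for Ly6a, -0.53 (SE 0.31) for Ly6e and -1.45 (SE 0.82) for Ly6c2. It was past edgeR's threshold for 0 of the 4 genes, beside 0.0188% of all genes, and 2 were under 0.05 unadjusted. DESeq2 called 2 lower, Ly6c1 and Ly6a, beside 0.231% of all genes called lower. The KO saline levels that chose the genes enter the interaction, and nothing is read from these counts.

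**Figure D2:**
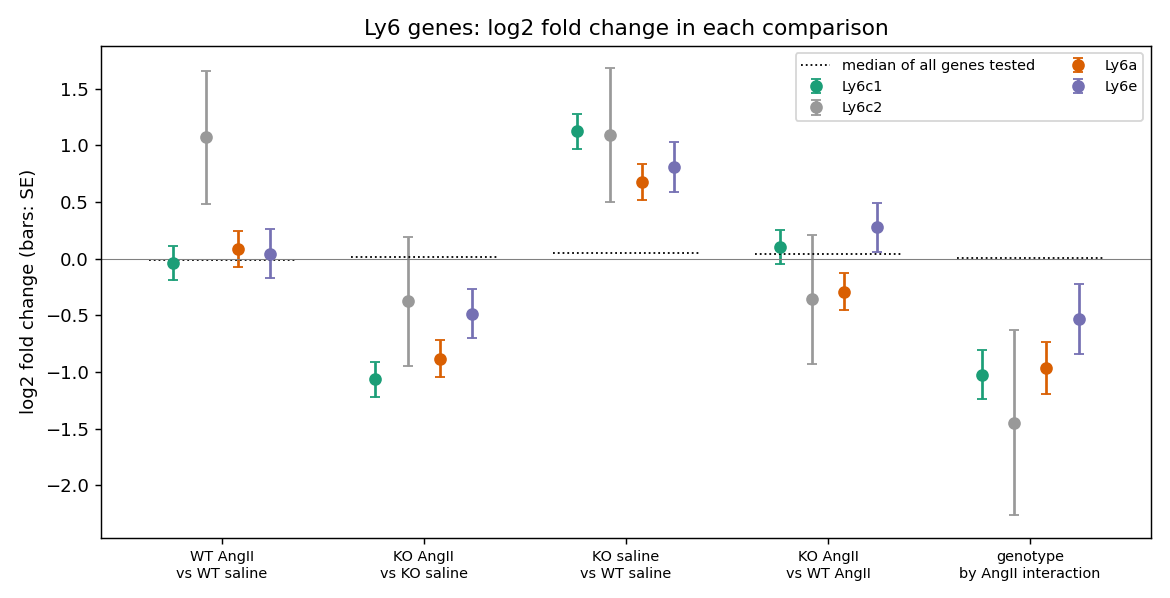
Log2 fold change of the 4 Ly6 genes in 5 comparisons, with bars of 1 SE from the fit of all 16 libraries. Ly6c1, Ly6a and Ly6e lie above 0 in KO saline against WT saline (0.68 to 1.13), below 0 in KO AngII against KO saline (-1.06 to -0.49) and near 0 in WT AngII against WT saline, while the bars of Ly6c2 are the longest throughout.

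The scaling of the libraries bears on these values. When CPM was taken from library totals alone, the median log2 difference of all genes in KO saline against WT saline moved from 0.05 to -0.28, and that of KO AngII against KO saline from 0.02 to 0.29. Ly6c1 was then higher in KO saline than in WT saline by 0.80, Ly6a by 0.35 and Ly6e by 0.50, all above that median. On library totals Ly6c1 still lay above all 12 other libraries in every KO saline library, whereas the lowest KO saline library for Ly6a, at 187 CPM, lay below the highest of the others at 193 CPM, and that for Ly6e, at 233 CPM, lay below 320 CPM. When reads of mitochondrially encoded genes were left out of the totals, Ly6c1 and Ly6a kept the full separation and Ly6e did not, with 347 against 357 CPM.

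Several measured properties of the libraries moved with the Ly6 levels. The mitochondrial read share averaged 30.5% ± 2.49 in KO saline and 13.4% ± 3.88 in WT saline (SD, n = 4), and it did not overlap between KO saline and any other group. Its part in the Ly6 differences was not tested. Log2 differences also followed gene length: across 15797 genes Spearman's rho with length was -0.276 for KO saline against WT saline and 0.338 for KO AngII against KO saline, values across genes that are not independent replicates. In the shortest of 5 equal groups of genes, which holds Ly6c1 and Ly6a, the median difference was 0.29 for the former and -0.24 for the latter comparison. Ly6c1 and Ly6a were beyond those medians in both. Ly6e, in the middle group, stood at 0.81 and -0.49, beside medians of 0.05 and 0.02 found there. The part of length in the result was not tested.

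The levels of copies of other genes differed as well, and how reads were assigned to these copies was not examined. Rps3a3, a near-copy of the ribosomal protein gene Rps3a1, was at 156 ± 57.4 CPM in KO saline and at 2.01 to 2.20 CPM in the means of the other groups, and Rps3a2 was at 123 ± 66.6 against 3.44 to 3.83 CPM. Rps3a1 itself was at 328 ± 143 CPM in KO saline and at 647 to 674 CPM elsewhere. Tpm3-rs7, a retrogene copy of a tropomyosin gene, was at 62.6 ± 29.3 CPM in KO saline and at 10.3 to 12.9 CPM elsewhere. Ly6c2 held at most 18 reads in a KO saline library, and with the copies summed the values were 1.13 for KO saline against WT saline and -1.06 for KO AngII against KO saline. With so few Ly6c2 reads the sum could not differ from Ly6c1, and the part of read assignment in the Ly6 levels was not tested.

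Endothelial cells are among the known sites of Ly6c1 and Ly6a, while Ly6e is broadly expressed. All 17 endothelial markers passed the expression filter, and 2 of the 17 were higher in KO saline than in WT saline by edgeR and 7 by DESeq2, beside 1.23% and 3% of all genes. Sox17, an endothelial transcription factor, rose from 17.1 ± 2.04 to 38.8 ± 9.5 CPM (log2 1.18, SE 0.24, edgeR adjusted p = 0.0191), and Icam2, an endothelial adhesion protein, rose from 24.8 ± 3.17 to 50.7 ± 5.71 CPM (log2 1.03, SE 0.24, edgeR adjusted p = 0.0355). The median log2 difference of the list was 0.60, with 16 of 17 positive, beside 0.05 for all genes. In KO AngII against KO saline 0 of 17 passed edgeR's threshold, 6 were under 0.05 unadjusted, DESeq2 called 4 lower, and the median was -0.47. In WT AngII against WT saline 0 of 17 passed, 1 was under 0.05 unadjusted, DESeq2 called 0 and the median was -0.34, and in KO AngII against WT AngII 0 passed, 4 were under 0.05 unadjusted, DESeq2 called 0 and the median was 0.44.

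The endothelial score, the mean log2 CPM of the 17 markers, was 5.95 to 6.54 for WT saline, 5.63 to 6.48 for WT AngII, 6.42 to 7.24 for KO saline and 5.95 to 6.92 for KO AngII. KO saline overlapped WT saline in this score only through KO saline replicate 1, at 6.42, and the other 3 KO saline libraries, at 6.87 to 7.24, lay above every WT saline library. Ly6c1 minus the score, in log2 CPM, was 0.50 to 0.65 for WT saline, 0.57 to 1.00 for WT AngII, 0.73 to 1.72 for KO saline and 0.10 to 0.86 for KO AngII. KO saline was thus above WT saline but overlapped both AngII groups, and without replicate 1, which gave the value of 1.72, it reached from 0.73 to 0.96. Ly6a minus the score was 0.97 to 1.22 in WT saline and 0.80 to 1.61 in KO saline (0.80 to 1.07 without replicate 1). Ly6e minus the score was 0.94 to 1.42 in WT saline and 1.07 to 1.93 in KO saline (1.07 to 1.27 without replicate 1), so Ly6a and Ly6e overlapped between these groups either way. The part of endothelial content in the Ly6 levels was not tested beyond these values.

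**Figure D3:**
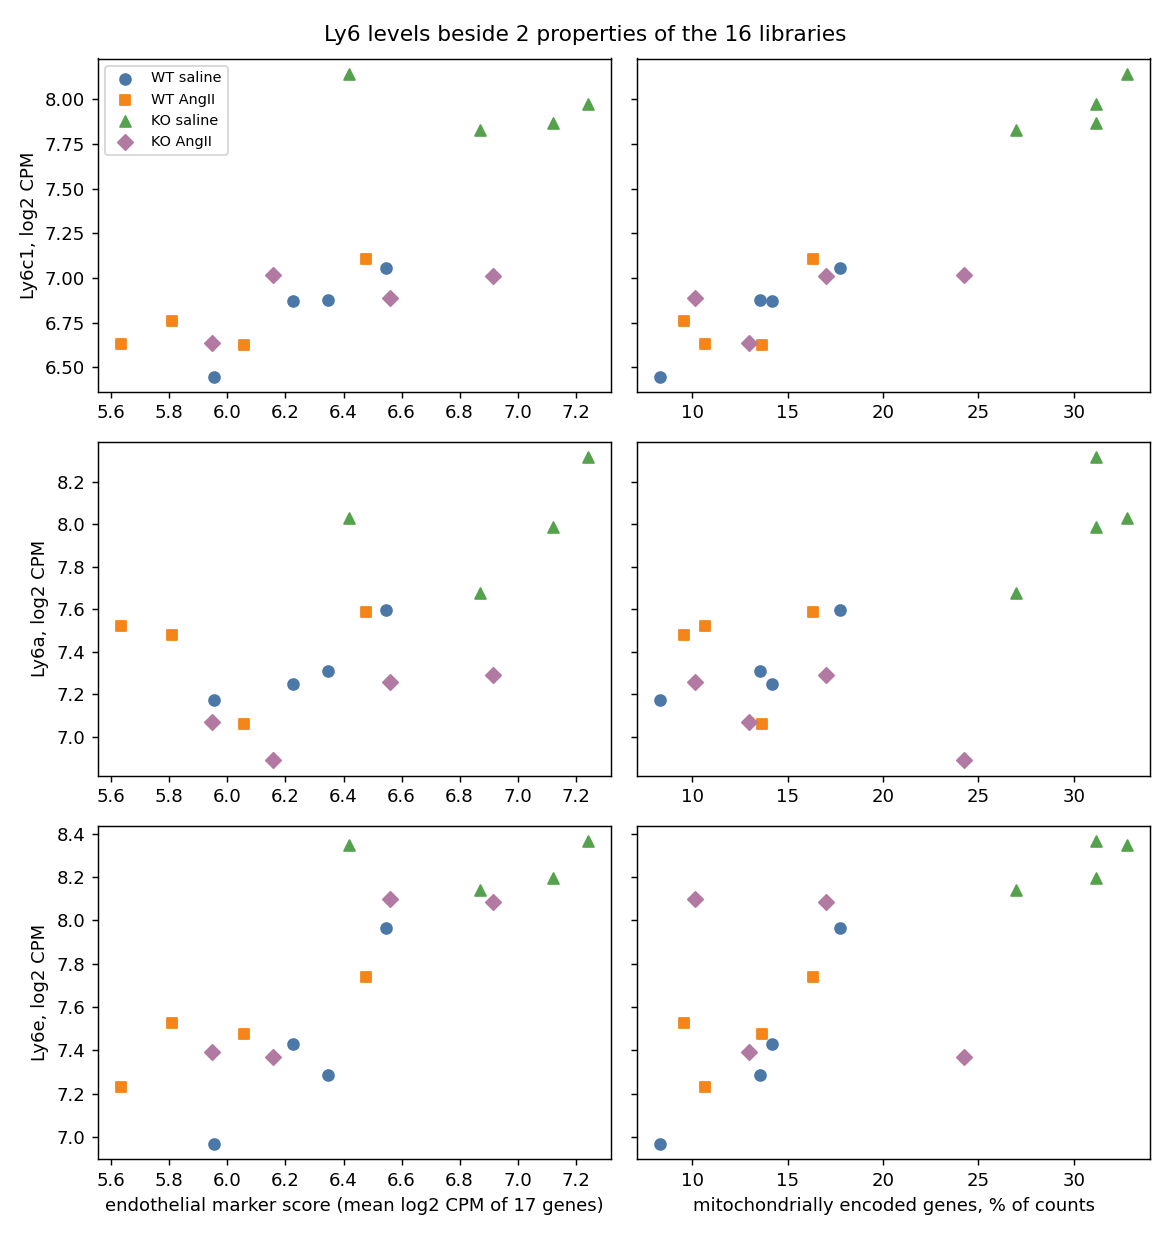
Levels of the Ly6 genes in the 16 libraries set against the mitochondrial share of reads and the endothelial score (mean log2 CPM of 17 markers), with each point 1 library. The KO saline libraries are apart from the rest in mitochondrial share (27.0% and above) and reach from 6.42 (replicate 1) to 7.24 in endothelial score, where the other 3 start at 6.87.

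Interferon-stimulated genes, a list of targets of the signal that raises several Ly6 genes, gave a count of edgeR calls near the background. Of 30 genes tested, 1 was past the threshold in KO saline against WT saline, beside 1.23% of all genes called higher and 3.01% in either direction. The gene was Irf1, an interferon-induced transcription factor, which rose from 26.1 ± 2.13 to 43.9 ± 4.44 CPM (log2 0.75, SE 0.13, edgeR adjusted p = 0.00824). There 3 were under 0.05 unadjusted and DESeq2 called 1 higher. The median difference of the list there was 0.28, with 20 of 30 positive, beside 0.05 for all genes. The median was -0.03 in WT AngII against WT saline (14 of 30 positive, all genes -0.01) and 0.14 in KO AngII against KO saline (20 of 30, all genes 0.02). In KO AngII against WT AngII it was 0.30 (25 of 30, all genes 0.04). The part of interferon signals in the Ly6 levels was not tested. In these last 3 comparisons 0 of 30 passed edgeR's threshold, 1, 1 and 2 were under 0.05 unadjusted, and DESeq2 called 0, 0 and 1.

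Genes that build and attach the GPI anchor, on which Ly6 proteins depend to reach the surface, did not pass the test. Of 27 tested, 0 were called by edgeR in any of the 5 comparisons, with 3 to 6 at an unadjusted p under 0.05, and DESeq2 called at most 2. The most abundant were Pigq and Pigk. Pigq stood at 57.2 ± 20.2 CPM in WT saline and 79.3 ± 16.2 in KO saline, and Pigk at 55.7 ± 3.56 and 50.7 ± 2.63 (SD, n = 4).

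Markers of other cells that carry Ly6 proteins were read the same way. Of 9 monocyte markers tested, 0 were called by edgeR in any comparison, with 5 at an unadjusted p under 0.05 in WT AngII against WT saline, where DESeq2 called 0 and the median was 0.97. By DESeq2, 1 was lower in KO saline than in WT saline, and 1 was higher in KO AngII than in KO saline. The monocyte list's most abundant gene, Fn1, which encodes fibronectin and is also made by vascular cells, stood at 2075 ± 802 CPM for WT saline, 4064 ± 1410 for WT AngII, 806 ± 172 for KO saline and 2353 ± 764 for KO AngII. The other, Hp, which encodes haptoglobin, stood at 385 ± 246, 716 ± 364, 460 ± 113 and 435 ± 80.1 CPM. Ly6c2, the Ly6C gene of monocytes, was at 0.524 to 1.12 CPM in the group means beside them.

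Of 14 adventitial fibroblast markers, 1 was called: Mfap5, a microfibril protein, was lower in KO AngII than in WT AngII, with 161 ± 41.5 against 376 ± 145 CPM (log2 -1.22, SE 0.29, edgeR adjusted p = 0.0446). Over all genes 2.03% were called by edgeR in that comparison. There 7 of 14 markers were under 0.05 unadjusted and DESeq2 called 3 lower, beside 3.2% of all genes. In KO saline against WT saline 3 were under 0.05 unadjusted and DESeq2 called 1 lower, beside 5.52% of all genes. The median log2 difference there was -0.17, with 10 of 14 negative. Of 8 adipocyte markers, the leptin gene Lep was higher in KO AngII than in WT AngII (38.3 ± 23.2 against 3.61 ± 1.12 CPM, edgeR adjusted p = 0.000648), and of 10 neuronal and adrenal markers Chgb, a secretory granule protein, was higher (45.7 ± 74.3 against 0.117 ± 0.154 CPM, edgeR adjusted p = 0.0495). In KO saline against WT saline all 8 adipocyte markers were positive, with a median of 0.83, while 0 were under 0.05 unadjusted and DESeq2 called 0. In KO AngII against KO saline 7 of 8 were negative, with a median of -0.39. There 1 was under 0.05 unadjusted and DESeq2 called 1 higher. The part of fat content in the Ly6 levels was not tested. The score of the neuronal and adrenal list was highest in KO AngII replicate 4, as given above. The lists of smooth muscle, macrophage, neutrophil, lymphocyte and skeletal muscle markers, with 10, 12, 4, 11 and 7 genes tested, had 0 called by edgeR in each of the 5 comparisons. In KO saline against WT saline 7, 1, 0, 0 and 7 of them were under 0.05 unadjusted, and DESeq2 called 1, 0, 0, 0 and 4. In KO AngII against WT AngII 9 of 12 macrophage markers were under 0.05 unadjusted and DESeq2 called 6 lower, with a median of -0.90, and in KO AngII against KO saline 6 of 7 skeletal muscle markers were under 0.05 unadjusted and DESeq2 called 3 lower. The median log2 differences of the 5 lists in KO saline against WT saline were -0.89, -0.26, 0.93, 0.01 and 3.87, and the skeletal muscle score was highest in KO saline replicate 3, at 5.72 against -0.98 to 1.26 in the other libraries. The most abundant genes of these lists were in KO saline at 5628 ± 682 CPM for Acta2, 156 ± 28.8 for Lyz2, 7.50 ± 2.73 for Mmp9, 2.58 ± 2.40 for Cd79a and 46.5 ± 80.0 for Acta1.

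Of the rest of the Ly6/uPAR family in the table, most genes had few reads in these aortae. Of 35 other family genes listed, 25 were in the table, and 17 of these were under the expression filter, with no more than 60 reads in any library. The other 10, among them Ly6g, Ly6a2, Ly6f and Ly6l, were not analysed here. Of the 8 tested, 0 were called by edgeR in any of the 5 comparisons. The counts at an unadjusted p under 0.05 were 1 in WT AngII against WT saline, 2 in KO AngII against KO saline, 2 in KO saline against WT saline, 1 in KO AngII against WT AngII and 2 in the interaction. DESeq2 called Plaur higher in the first of these and Cd59a lower in the next, and 0 in the others. The median log2 difference of the 8 genes in KO saline against WT saline was 0.40, beside 0.05 for all genes, and 6 of 8 were positive.

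The 4 most abundant of these relatives differed in where their means were highest. Gpihbp1, the endothelial protein that carries lipoprotein lipase to the capillary surface, stood at 37.8 ± 25.4 CPM for WT saline, 34.8 ± 11.2 for WT AngII, 76.2 ± 24.4 for KO saline and 48.5 ± 13.1 for KO AngII, with a log2 difference of 1.01 (SE 0.45, edgeR adjusted p = 0.206) in KO saline against WT saline. Cd59a, an inhibitor of the complement membrane attack complex, stood at 83.6 ± 13.1, 90.1 ± 17.9, 119 ± 52.9 and 46.0 ± 22.2 CPM, and its value in KO AngII against KO saline was -1.37 (SE 0.32, edgeR adjusted p = 0.106). Lynx1, which modulates nicotinic acetylcholine receptors, stood at 120 ± 27.9, 116 ± 14.3, 88.3 ± 8.55 and 99.8 ± 18.4 CPM, with -0.45 (SE 0.18, edgeR adjusted p = 0.162) in KO saline against WT saline. Plaur, the urokinase receptor, stood at 8.03 ± 1.67, 23.2 ± 11.8, 9.87 ± 1.62 and 15.1 ± 7.86 CPM, with 1.53 (SE 0.40, edgeR adjusted p = 0.144) in WT AngII against WT saline. Gpihbp1 and Cd59a thus had their highest means in KO saline, as did Ly6c1, Ly6a and Ly6e, Lynx1 had its lowest there, and Plaur was highest in WT AngII, but 0 of these differences passed edgeR's threshold.

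**Figure D4:**
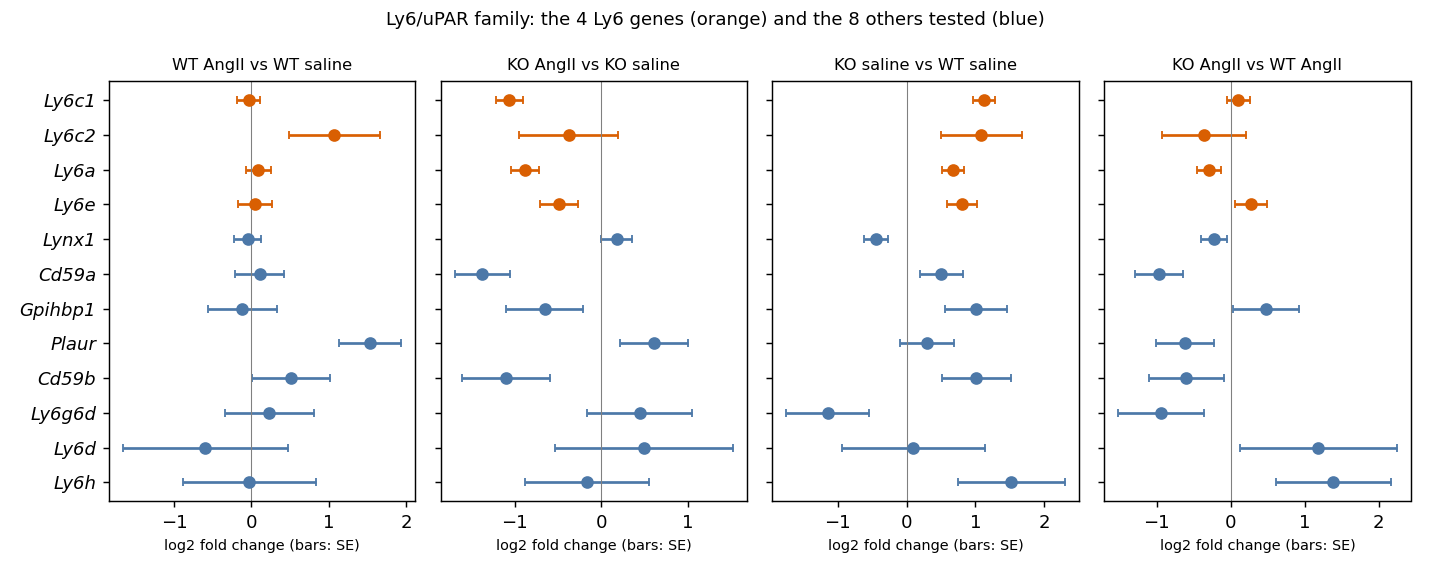
Log2 fold change (points) with 1 SE (bars) of the 4 Ly6 genes and the 8 other Ly6/uPAR family genes that were tested. Ly6c1, Ly6a and Ly6e have shorter bars than most relatives, and the relatives lie on both sides of 0 in the comparisons shown.

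Across the 16 libraries the log2 CPM of Ly6c1 went with that of Ly6e (Pearson's r 0.84) and Ly6a (0.83), and Ly6a with Ly6e (0.73), while Ly6c2 was at 0.31 to 0.51 with each of them. These are descriptions over libraries that share groups, depth and mitochondrial share. The genes whose log2 CPM was most like that of Ly6e were Unc45b (r 0.95), Ecscr (0.94), Emcn (0.94), Gimap6 (0.92) and Tmem88 (0.92), of which Emcn and Ecscr encode endothelial surface proteins. Those most like Ly6a were Eng (0.88), an endothelial co-receptor for TGF-beta family ligands, Tpm3-rs7 (0.84), Ifitm3 (0.84), Tmc6 (0.83) and Ssbp4 (0.83). Those most like Ly6c1 were Gng11 (0.95), mt-Nd1 (0.94), Hist1h2al (0.93), Srgn (0.93) and mt-Nd2 (0.93), so 2 mitochondrially encoded genes stood among its nearest 5. For Ly6c2, with so few reads, they were Napsa (0.80), Dnph1 (0.80), Trim30a (0.78), Bcl6 (0.75) and Plk3 (0.75).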

How the data were processed

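Poly-A RNA of 16 suprarenal aortae was sequenced, and the authors deposited unnormalized whole-number counts for each gene and library. HISAT2 2.0.5, DESeq2 1.20.0, featureCounts 1.5.0-p3 and build GRCm39 are named, per the submitters' processing notes. Annotation release, strandedness and the handling of multiply matching reads were not given in the sources used here. Groups and replicate numbers came from the sample titles. Genes were filtered with filterByExpr (15984 kept, 13711 removed, at least 99.47% of reads kept in a library), scaled by TMM and tested in edgeR 4.0.16 (R 4.3.3) by the quasi-likelihood F test, in 1 fit of the 16 libraries with a mean per group, 12 residual degrees of freedom, two-sided, with Benjamini-Hochberg adjustment over all genes tested and a threshold of 0.05. Each SE is the size of the log2 fold change over the square root of F. Log2 CPM scores used a prior count of 2. The fit was tested on simulated data that had less spread between libraries than these and no built-in differences in scaling. That test does not show how the fit does under the conditions of these libraries. P-values reflect the spread between these libraries, and the biological coefficient of variation was 35.3%.

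The 4 genes, the gene lists and the naming rule were chosen with earlier results of these data known. Named were the 4 genes, Vamp8, the copies Rps3a3, Rps3a2 and Tpm3-rs7, the 4 most abundant other family genes, up to 2 called (otherwise the 2 most abundant) genes of each list, of which only the first is given for the lists with least bearing on Ly6, and the 5 nearest genes by Pearson correlation. Rps3a1 was added after its values were seen. Alternatives were RLE scaling, library totals alone, no filter, DESeq2 1.42.0, the replicate number as a block, the summed Ly6c1 and Ly6c2 reads, the fit without KO saline replicate 1 and KO AngII replicate 4, each library left out in turn and, added after seeing the data, totals without mitochondrially encoded genes and the endothelial score without KO saline replicate 1. Coding sequences came from GENCODE M21 transcripts and promoters from RefSeq, both on GRCm38, so coordinates are those of that build and not of the count table; the promoter table matched 2 of the 4 genes, Ly6c1 and Ly6c2.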

Additional observations from a re-analysis of the deposited data

Results flagged for a closer look

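Ly6c2 in WT saline had 1 library apart from the other 3: replicate 2 stood at 0.979 CPM, and the others at 0.354 to 0.407 CPM, a gap of 0.915 of the range of the group. These values rest on 15 reads against 6 to 7.

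Ly6d in KO AngII was at 4.48 CPM in replicate 3 and at 0.0700 to 0.688 CPM in the other 3 libraries, a gap of 0.860 of the range. Chance alone marks about 1 in 20 groups of this size in this way.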

How the results depend on the processing

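Over all alternatives, each library left out included, 117 of 120 log2 differences of Ly6c1, 115 of 115 of Ly6c2, 112 of 115 of Ly6a and 113 of 115 of Ly6e moved by less than the spread between replicates. All 8 that moved further came from library totals alone, which shift the median of all genes: in KO saline against WT saline Ly6c1 was 0.80, Ly6a 0.35 and Ly6e 0.50, in KO AngII against KO saline Ly6c1 was -0.78 and Ly6a -0.59, and in the interaction Ly6c1 was -0.68, Ly6a -0.61 and Ly6e -0.17. In the interaction that scaling moves the median of all genes from 0.01 to 0.35. For Ly6c2 the spread between replicates is wide, so its 115 of 115 is no sign of a stable value. With 1 library left out, its difference in KO AngII against KO saline ran from -0.82 to -0.04.

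The number of the 4 Ly6 genes called in KO saline against WT saline was 2, and 1 (Ly6c1) with library totals alone, with totals without mitochondrially encoded genes, with no filter and without KO saline replicate 1 and KO AngII replicate 4, whereas DESeq2 and the replicate block gave 3; leaving out 1 library gave 1 to 3. In KO AngII against KO saline it was 1, then 2 by DESeq2, 0 with library totals alone and 0 without those 2 libraries; leaving out 1 library gave 0 (without KO AngII replicate 3) to 2. In the interaction it was 0, and 2 by DESeq2. In the main fit 3.01% of all genes were called in KO saline against WT saline, 0.0501% in KO AngII against KO saline and 0.0188% in the interaction. The number of all genes called also changed with the setting, in KO saline against WT saline from 105 to 1744 over single libraries left out. The counts of the 4 Ly6 genes come from the values that chose them, and nothing is read from them. Of the other Ly6/uPAR family genes 0 were called, against 1 by DESeq2 in KO AngII against KO saline (Cd59a) and in WT AngII against WT saline (Plaur), and 1 with library totals alone in KO saline against WT saline (Lynx1); leaving out 1 library gave 0 to 1 in KO AngII against WT AngII, in KO saline against WT saline and in WT AngII against WT saline.

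Over all genes, the number called in WT AngII against WT saline was 71, against 280 by DESeq2, 20 with library totals alone, 39 with totals without mitochondrially encoded genes and 128 without those 2 libraries, with 3 to 115 over single libraries left out. In KO AngII against KO saline it was 8, against 734 by DESeq2 and 5 with library totals alone, with 6 to 32 over single libraries. In KO saline against WT saline it was 481, against 1362 by DESeq2, 2369 with library totals alone and 307 with totals without mitochondrially encoded genes, with 105 to 1744. In KO AngII against WT AngII it was 324, against 1230 by DESeq2, 169 with library totals alone and 204 with totals without mitochondrially encoded genes, with 100 to 845. In the interaction it was 3, against 104 by DESeq2, with 2 to 12. The cause of these differences was not tested.

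With the replicate number as a block the counts of genes called were 42 in WT AngII against WT saline, 14 in KO AngII against KO saline and 166 in KO AngII against WT AngII, and Ly6c1 was at 1.14 in KO saline against WT saline and -1.07 in KO AngII against KO saline. Same-numbered libraries of different groups had correlations of -0.42 to 0.44, over 0.1 in 8 of 24 pairs, and 6 of 16 libraries correlated best with their own number. No clear pairing by number was seen, but with 4 libraries a group this check cannot exclude it. Ly6c2, at 2 to 28 reads, is limited by depth, and with 4 libraries a group small differences of the other 3 genes could be missed.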
